A study of Homo sapiens with 12 samples.

Results

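The interferon-stimulated genes described here were 49 genes listed by symbol: antiviral effectors, nucleic acid sensors, the transcription factors of the pathway and the immunoproteasome subunits. All 49 were among the 46863 rows of the count table. The rule names symbols, not measured values, but the genes were chosen with earlier results of these data known. Of the 49 genes, 31 passed the filter on low counts and were tested together with 16835 genes in all, and 18 did not. RNA sequencing was performed on SU-DHL-4, an established B-cell lymphoma line of the germinal centre subtype of DLBCL that was derived from a peritoneal effusion and is labelled wild type. The cells were exposed for 72 h to DMSO as the control, to 1 µM entospletinib (Ento), an inhibitor of the kinase SYK, to 0.01 µM AZD5153 (AZD), a bivalent inhibitor of BET proteins, or to both agents at these doses (Ento+AZD). Each of the 4 groups held 3 libraries, numbered 1 to 3. All libraries came from this single line, the labels name no treatment with interferon, and they do not say whether the libraries of a group were separate cultures, so p-values measure the spread between these libraries only.

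Type I interferons bind a receptor of IFNAR1 and IFNAR2, whose kinases JAK1 and TYK2 phosphorylate STAT proteins. Of these, STAT2 is bound to IRF9 in the complex ISGF3, which binds interferon-stimulated response elements (ISRE) in the promoters of its target genes, whereas interferon gamma acts mainly at gamma-activated sites (GAS). The products cut or mask viral RNA, starve viruses of nucleotides, hold back budding particles or raise antigen processing, and several are also made at a basal level without interferon. SYK relays signals of the B-cell receptor, and BET proteins read acetylated histones at promoters and enhancers.

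The promoters of the genes were searched on both strands for the ISRE core GAAANNGAAA (a match on the other strand reads as the reverse complement, as shown for PARP12 and IFIT1) and for the GAS core TTCNNNGAA, in RefSeq windows of GRCh38.p14 from 250 bases before to 50 bases after the start. The table held a window for 40 of the 49 genes; OAS2, OASL, IFIT2, MX2, GBP2, GBP5, USP18, IRF7 and TRIM22 had none. The ISRE core was found in 23 of the 40 windows (57.5%), against 1255 of all 35116 windows (3.57%). It was present in 12 of the 14 windows of genes below the filter (85.7%) and in 11 of the 26 windows of tested genes (42.3%), so most of the genes below the filter that had a window also carried these letters. The GAS core was found in 8 of the 40 windows (20%) and in 7.66% of all windows. A match is a description of letters, not of a bound site. The stretches around the match are shown for genes that the results below turn on, and for ISG15, which did not pass the test in any comparison, and IFIT1, which was below the filter. Each reads 5′ to 3′ on the strand of its gene, with 1 core in capitals. ISG15 and IFIT1 have 2 matches each. In IFIT1 the other match is left in lower case. In ISG15 the other match overlaps the one shown, and only the bases that they do not share are in lower case.
DTX3L, chr3:122564317-122564341, plus strand: gacctccagggaagcGAAACTGAAA
EPSTI1, chr13:42992267-42992306, minus strand: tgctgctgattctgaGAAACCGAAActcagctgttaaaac
SAMD9, chr7:93118091-93118130, minus strand: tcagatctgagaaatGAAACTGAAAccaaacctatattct
ISG20, chr15:88638932-88638971, plus strand: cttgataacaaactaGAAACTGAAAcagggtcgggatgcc
PARP12, chr7:140062952-140062976, minus strand: ccggcccggggccgcTTTCGGTTTC
ISG15, chr1:1013375-1013414, plus strand: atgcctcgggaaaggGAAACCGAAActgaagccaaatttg
IFIT1, chr10:89392492-89392531, plus strand: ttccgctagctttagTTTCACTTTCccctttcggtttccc

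In the DMSO libraries the levels of the genes formed a continuous range, in which the lowest tested genes and the highest genes below the filter overlapped. Levels between genes are compared as CPM, counts scaled to library size with TMM factors, per kilobase of exon. BST2, a membrane protein that tethers budding virus particles, had the highest level with 86.4 ± 15.7 (SD, n = 3), followed by IFI16, a nuclear DNA sensor, with 48.1 ± 1.68. PSMB10, an immunoproteasome subunit, with 20.9 ± 4.33 and ISG15, a ubiquitin-like modifier, with 20.8 ± 4.84 came next and differed by less than their spread. PSMB8, SAMHD1, TRIM22, STAT2, ISG20, SAMD9, SP100, PSMB9, EIF2AK2 and SP110 lay between 13.1 and 4.05, and the 10 tested genes from EPSTI1 down to IFI35 lay between 2.89 and 0.758. CMPK2, SAMD9L, PARP12, RSAD2, PARP14, MX2 and OAS3 ranged from 0.602 down to 0.0254. Of the genes below the filter, IFI6 was at 0.265, above 6 of these 7.

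The 18 genes below the filter included several that are used as readouts of an interferon response, while ISG15, OAS1, IFIT2, MX2 and RSAD2 passed the filter. Over all 12 libraries together, IFIT1 had 15 counts, IFIT3 22, IFIT5 16, MX1 24, IFI44 25, IFI44L 10, XAF1 9, HERC6 11 and IFI6 55. The cytoplasmic RNA sensor IFIH1 had 49 counts, the ISG15-removing protease USP18 3 and OASL 2. Of the guanylate-binding proteins, GBP3 had 34 counts, GBP1 10, GBP2 5, GBP4 1 and GBP5 none, and the ISG15 ligase HERC5 had none either. A count of 0 still allows up to 3 counts in a library, at this depth of 18121993 to 24675830 counts per library. Differences between treatments were not tested for these 18 genes. Of 10 interferon genes listed (IFNA1, IFNA2, IFNB1, IFNE, IFNK, IFNW1, IFNG, IFNL1, IFNL2 and IFNL3), all were below the filter: IFNK and IFNG had 5 counts each over the 12 libraries and the other 8 had 0.

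**Figure D1:**
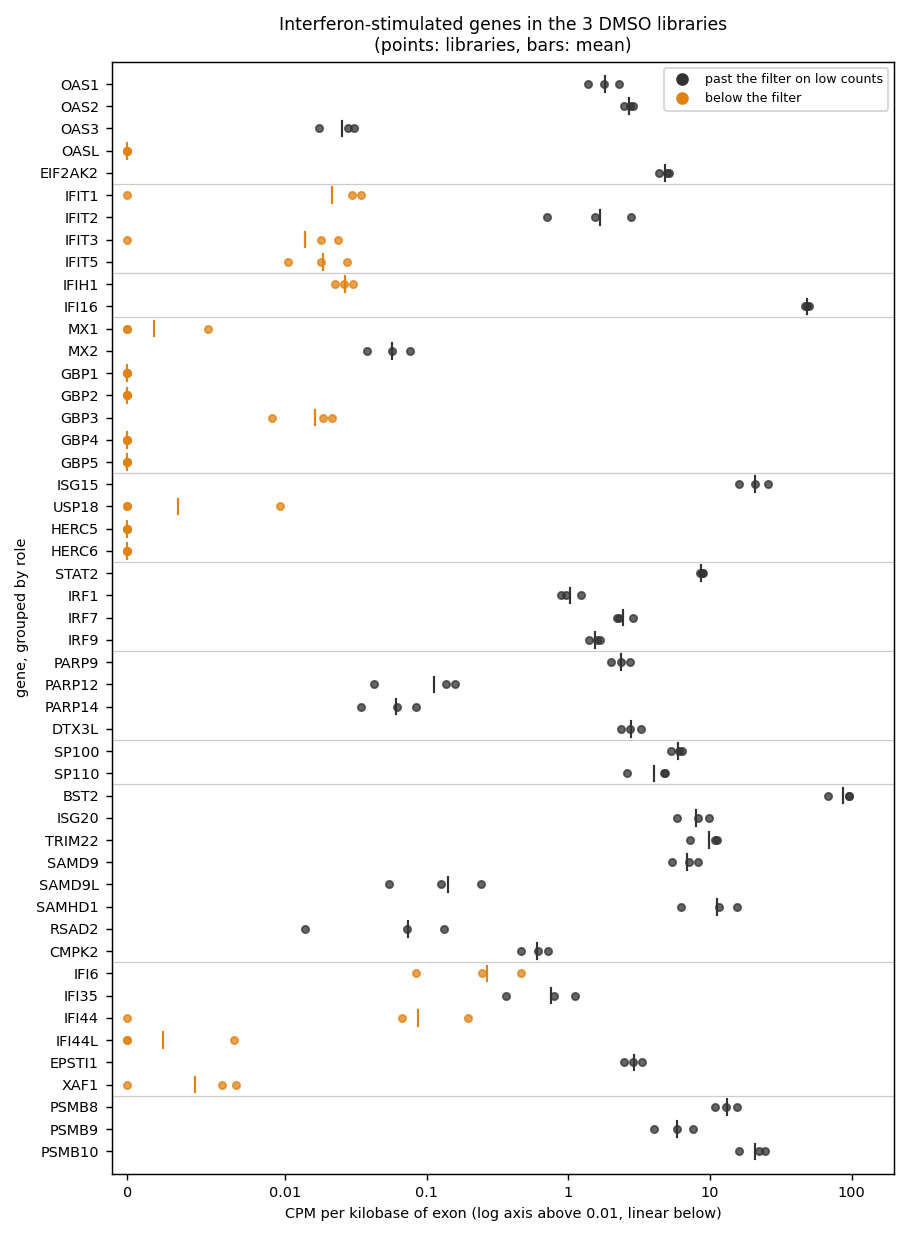
Level of each of the 49 genes in the 3 DMSO libraries, in CPM per kilobase of exon on an axis that is logarithmic above 0.01 and linear below; points are libraries, bars are means and grey lines part the roles. The 31 genes that passed the filter (dark) spread from OAS3 at 0.0254 to BST2 at 86.4, while the 18 genes below it (orange) lie between 0 and 0.265, where IFI6, a short gene, is the highest of them, and overlap with the lowest of the dark genes.

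With AZD, nearly all genes that passed the test were lower than in DMSO. Compared with DMSO, 15 of the 31 tested genes were lower and 1 was higher at an adjusted p under 0.05 (edgeR quasi-likelihood test with replicate number as a term, Benjamini-Hochberg adjustment over all 16835 genes), where 12.7% of all tested genes were lower and 9.57% higher. With the further threshold of a fold change over 2, 6 were lower and none higher (2.53% and 0.659% of all tested genes), and the DESeq2 fit called 14 lower and none higher. In 11 genes all 3 AZD libraries lay below all 3 DMSO libraries and in none above, against 12.7% and 11.7% of all tested genes. The median log2 fold change of the 31 genes was -0.40, against 0.0055 over all tested genes. In bulk RNA, fewer cells that express a gene and less RNA per cell cannot be told apart.

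The decreases with the smallest adjusted p were in DTX3L, an E3 ubiquitin ligase, and in its partner PARP9, an ADP-ribosyltransferase, which form a complex that acts in DNA repair and in interferon signalling. DTX3L measured 18.8, 13.7 and 15.6 CPM in DMSO, 13.4, 6.04 and 12.4 CPM in Ento, 6.70, 4.17 and 5.52 CPM in AZD and 3.62, 2.81 and 3.38 CPM in Ento+AZD, for replicates 1, 2 and 3. All AZD libraries lay below all DMSO libraries, and all Ento+AZD libraries below those of the other groups. The log2 fold change with AZD was -1.57 ± 0.15 (SE; adjusted p = 8.32e-05). PARP9 measured 24.4, 17.9 and 21.0 CPM in DMSO, 17.8, 9.26 and 17.9 CPM in Ento, 10.8, 5.66 and 7.35 CPM in AZD and 4.45, 4.86 and 3.84 CPM in Ento+AZD. Its groups were ordered in the same way, with a log2 fold change of -1.43 ± 0.18 with AZD (adjusted p = 0.000341). The genes lie head to head on chromosome 3 (GRCh38; PARP9 at 122527924-122564577 on the minus strand, DTX3L at 122564338-122575203 on the plus strand), and the ISRE core shown for DTX3L lies within the PARP9 gene body. Their exons share 139 bases on opposite strands, 1.56% of the exon bases of PARP9 and 2.41% of those of DTX3L; the strand setting of the counting was not given in the sources used here, so reads in these bases cannot be assigned to either gene.

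EPSTI1, named for epithelial and stromal interaction, measured 16.4, 14.1 and 12.2 CPM in DMSO and 8.55, 4.92 and 3.97 CPM in AZD, without overlap. Its log2 fold change was -1.31 ± 0.17 (adjusted p = 0.000366). IFIT2, a protein that binds RNA and limits its translation, measured 12, 6.64 and 3.06 CPM in DMSO and 4.26, 2.62 and 1.35 CPM in AZD. The groups overlapped because the replicates differed widely, but each AZD library was below the DMSO library of its own number, with a log2 fold change of -1.36 ± 0.20 (adjusted p = 0.000656). SAMD9L, an antiviral protein of the same locus as SAMD9, was low (1.95, 1.01 and 0.432 CPM in DMSO, 0.548, 0.267 and 0.0968 CPM in AZD) and had the largest decrease among the 31 genes, a log2 fold change of -1.86 ± 0.32 (adjusted p = 0.00161). DESeq2 gave no adjusted p for it in this comparison.

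Smaller decreases were found in highly expressed genes. ISG20, a 3′ to 5′ exonuclease of single-stranded RNA, measured 59.5, 70.3 and 42.2 CPM in DMSO and 35.1, 42.1 and 21.3 CPM in AZD, with all AZD libraries below those of DMSO and a log2 fold change of -0.82 ± 0.11 (adjusted p = 0.00042). SAMD9, whose protein blocks translation in poxvirus infection, changed by -0.59 ± 0.08 (adjusted p = 0.00046) and TRIM22, an antiviral ubiquitin ligase, by -0.53 ± 0.09 (adjusted p = 0.00188). EIF2AK2, which encodes the RNA-activated kinase PKR, measured 56.2, 55.0 and 48.4 CPM in DMSO and 39.6, 38.7 and 34.1 CPM in AZD. Its groups did not overlap and the log2 fold change was -0.51 ± 0.09 (adjusted p = 0.00177). PSMB8, an inducible catalytic subunit of the immunoproteasome, measured 53.7, 45.3 and 37.5 CPM in DMSO and 36.8, 31.6 and 30 CPM in AZD, again without overlap (log2 fold change -0.47 ± 0.10, adjusted p = 0.00445). Of its exon bases, 17.3% are shared with PSMB8-AS1 and PSMB9 on the opposite strand.

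The remaining calls with AZD were lost when single libraries were left out. IFI16 had a log2 fold change of -0.28 ± 0.07 (adjusted p = 0.0147), which was 0.0525 without AZD replicate 2 and 0.122 without AZD replicate 3. IFI35, a cytoplasmic leucine zipper protein, had -1.16 ± 0.32 (adjusted p = 0.0208), which was 0.128 without DMSO replicate 1, 0.135 without AZD replicate 1 and 0.0769 without AZD replicate 3. SAMHD1, a hydrolase of deoxynucleotide triphosphates, was the only gene called higher. Its level was 125, 169 and 67.1 CPM in DMSO and 126, 256 and 172 CPM in AZD, with overlapping groups. The log2 fold change was 0.65 ± 0.18 (adjusted p = 0.0229), and the adjusted p was 0.113 without DMSO replicate 3, 0.103 without AZD replicate 2 and 0.143 without AZD replicate 3. OAS2 (-0.34 ± 0.11, adjusted p = 0.0389), IRF1 (-0.41 ± 0.13, adjusted p = 0.0298) and the immunoproteasome subunit PSMB9 (-0.40 ± 0.14, adjusted p = 0.0496) lost their calls in 6, 6 and 10 of the 12 fits that each left out 1 library, with adjusted p up to 0.243 for OAS2 without AZD replicate 3, 0.123 for IRF1 without AZD replicate 3 and 0.211 for PSMB9 without AZD replicate 2. Without AZD replicate 3, 10 of the 31 genes were called, in place of 16.

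**Figure D2:**
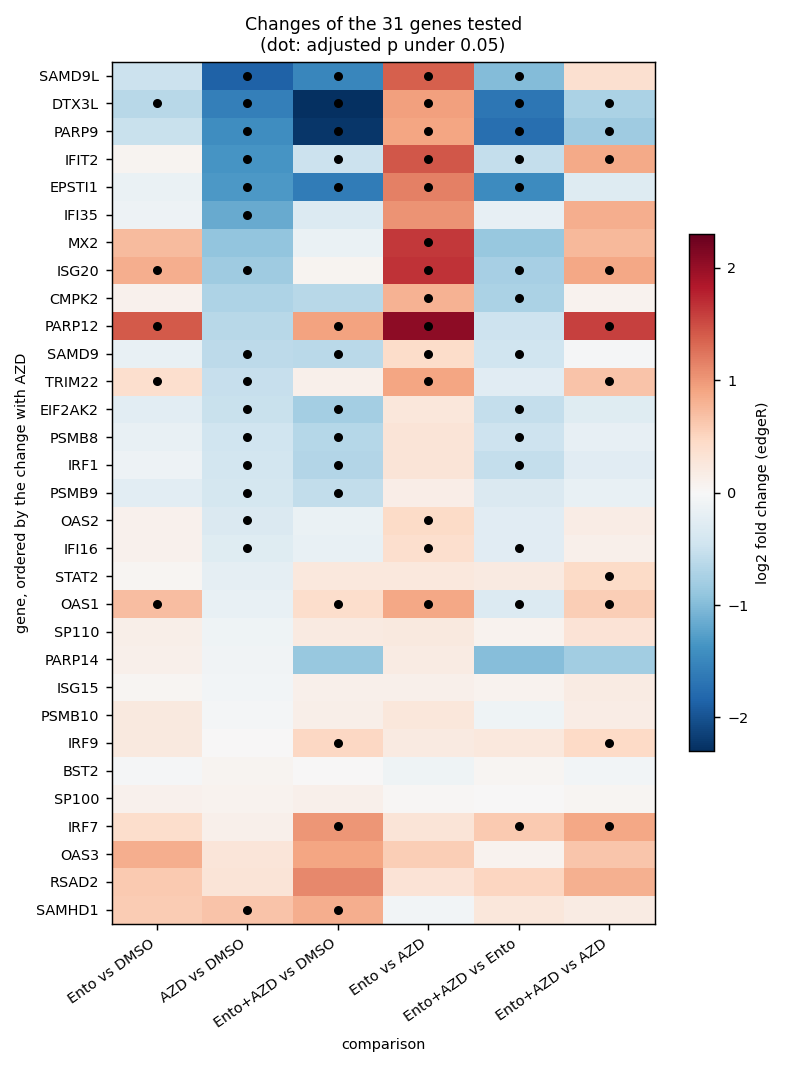
Log2 fold changes (colour, edgeR) of the 31 tested genes in the 6 comparisons between groups, with a dot where the adjusted p was under 0.05; genes are ordered by their change with AZD. The top rows, from SAMD9L to EPSTI1, are blue in AZD against DMSO and red in Ento against AZD, while BST2, SP100 and ISG15 carry no dot in any column.

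With Ento alone, few of the genes changed. Compared with DMSO, 4 of the 31 genes were higher and 1 was lower, against 4.66% and 3.66% of all tested genes, and 1 gene was higher and none lower by a fold change over 2 (1.1% and 0.535% of all tested genes). All 3 Ento libraries lay above all DMSO libraries in 3 genes and below them in 2, against 8.07% and 7.08% of all tested genes. The median log2 fold change was 0.10, and it was 0.0044 without DMSO replicate 3 and 0.15 without DMSO replicate 1. ISG20 rose to 89.5, 138 and 80.8 CPM, above all DMSO libraries, with a log2 fold change of 0.84 ± 0.11 (adjusted p = 0.000313). OAS1, an enzyme that makes 2′-5′-oligoadenylates to activate RNase L, measured 29.5, 23.1 and 18 CPM in DMSO and 44.5, 36.5 and 33.5 CPM in Ento. Its groups did not overlap and it rose by 0.71 ± 0.11 on the log2 scale (adjusted p = 0.0011).

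The other calls with Ento were lost when single libraries were left out. PARP12, a mono-ADP-ribosyltransferase of stress granules, measured 0.755, 0.870 and 0.236 CPM in DMSO and 1.39, 3.58 and 0.442 CPM in Ento. It was higher within each replicate number while the groups overlapped, with a log2 fold change of 1.41 ± 0.29 (adjusted p = 0.0091), but the adjusted p was 0.0905 without DMSO replicate 2 and 0.129 without Ento replicate 2. TRIM22 had a log2 fold change of 0.39 ± 0.09 (adjusted p = 0.0178), and the adjusted p lay between 0.0568 and 0.0839 without DMSO replicate 2 or 3 or any of the Ento replicates 1, 2 and 3. DTX3L was the gene called lower (log2 fold change -0.63 ± 0.14, adjusted p = 0.016), with an adjusted p of 0.0552 without DMSO replicate 2, 0.055 without Ento replicate 1 and 0.101 without Ento replicate 2. The number of genes called fell from 5 to 2 without DMSO replicate 2, to 3 without Ento replicate 1 and to 2 without Ento replicate 2.

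Set directly against each other, Ento and AZD differed in 14 of the 31 genes, all higher with Ento, where 8.99% of all tested genes were higher and 5.73% lower. A fold change over 2 was reached by 6 genes, ISG20, IFIT2, EPSTI1, PARP12, MX2 and SAMD9L, all higher with Ento (2.8% of all tested genes, against 0.41% lower). In 13 genes all Ento libraries lay above all AZD libraries and in none below, against 11% and 10.5% of all tested genes. ISG20 had the smallest adjusted p, with a log2 fold change of 1.66 ± 0.11 (adjusted p = 4.75e-07). TRIM22 measured 164, 186 and 130 CPM in Ento and 80.1, 114 and 63.8 CPM in AZD, without overlap, a difference of 0.92 ± 0.09 (adjusted p = 2.01e-05). OAS1 differed by 0.88 ± 0.11 (adjusted p = 8.75e-05) and IFIT2 by 1.42 ± 0.20 (adjusted p = 0.00026).

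MX2, a dynamin-like GTPase that acts against HIV, was at 1.35, 1.02 and 1.77 CPM in Ento and at 0.421, 0.481 and 0.435 CPM in AZD. These groups did not overlap and differed by 1.62 ± 0.34 (adjusted p = 0.00554), although neither group passed the test against DMSO (0.829 ± 0.282 CPM, n = 3). IFI16 differed by 0.38 ± 0.07 (adjusted p = 0.00321), EPSTI1 by 1.15 ± 0.17 (adjusted p = 0.000424), SAMD9 by 0.42 ± 0.08 (adjusted p = 0.00287) and PARP12 by 2.06 ± 0.32 (adjusted p = 0.000606). PARP9 and DTX3L, which had their lowest single-agent levels with AZD, differed by 0.91 ± 0.18 (adjusted p = 0.00386) and 0.94 ± 0.16 (adjusted p = 0.00108). The call of OAS2 (0.43 ± 0.11, adjusted p = 0.0157) was lost without Ento replicate 3 (adjusted p = 0.119) or AZD replicate 3 (adjusted p = 0.125). SAMD9L (1.37 ± 0.34, adjusted p = 0.0152) had an adjusted p between 0.055 and 0.0758 without Ento replicate 2 or any of the AZD replicates 1, 2 and 3. CMPK2, a mitochondrial nucleotide kinase that overlaps RSAD2 on the opposite strand (0.80 ± 0.25, adjusted p = 0.0403), lost its call in 7 of the 12 fits that each left out 1 library, with an adjusted p up to 0.20 without Ento replicate 3.

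Under Ento+AZD, 5 of the 31 genes were higher and 10 lower than in DMSO, a share near the 19.2% and 20.8% of all tested genes on the higher side and above it on the lower side. A fold change over 2 was found in 1 higher gene (3.43% of all tested genes) and 4 lower genes (4.89%), and the groups did not overlap in 3 higher and 9 lower genes (19.1% and 20% of all tested genes). The median log2 fold change was -0.15, and it was 0.10 without DMSO replicate 1. DTX3L had a log2 fold change of -2.29 ± 0.16 (adjusted p = 1.82e-06) and PARP9 of -2.24 ± 0.19 (adjusted p = 4.92e-06), the largest decreases among the 31 genes in this comparison. EPSTI1 measured 5.53, 5.05 and 3.38 CPM with the combination, a log2 fold change of -1.61 ± 0.17 (adjusted p = 1.67e-05). EIF2AK2 measured 29.7, 33.9 and 28.9 CPM, below every DMSO library, with a log2 fold change of -0.78 ± 0.09 (adjusted p = 2.16e-05).

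SAMD9L (-1.50 ± 0.31, adjusted p = 0.00157), IRF1 (-0.67 ± 0.13, adjusted p = 0.00102), PSMB8 (-0.65 ± 0.10, adjusted p = 0.000151), SAMD9 (-0.63 ± 0.08, adjusted p = 4.92e-05) and PSMB9 (-0.56 ± 0.14, adjusted p = 0.00518) were also lower. IRF1 encodes a transcription factor of the interferon gamma response, and 22.9% of its exon bases are shared with IRF1-AS1 and a further gene on the opposite strand. IFIT2 had a log2 fold change of -0.49 ± 0.18 (adjusted p = 0.0456) and lost its call in 7 of the 12 fits that each left out 1 library, with an adjusted p up to 0.244 without DMSO replicate 1. The third catalytic subunit of the immunoproteasome, PSMB10, measured 36.8 ± 3.56 CPM against 33.9 ± 7.04 CPM in DMSO and was not called (log2 fold change 0.13 ± 0.09).

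Of the 4 transcription factors among the genes, IRF7 and IRF9 were higher with the combination than in DMSO. IRF1 was lower and STAT2 was not called. IRF7, the factor that drives interferon alpha genes, measured 7.51, 5.73 and 5.97 CPM in DMSO, 7.99, 10.2 and 7.71 CPM in Ento, 6.32, 8.98 and 5.95 CPM in AZD and 12.6, 16.0 and 10.8 CPM in Ento+AZD. All libraries of the combination were above those of every other group. Its log2 fold change was 1.01 ± 0.15 against DMSO (adjusted p = 0.000161) and 0.89 ± 0.15 against AZD (adjusted p = 0.0034). Against Ento it was 0.60 ± 0.15 (adjusted p = 0.0117), with an adjusted p of 0.0766 without Ento replicate 1, 0.0507 without Ento replicate 3 and 0.0518 without Ento+AZD replicate 2. IRF9, the DNA-binding part of ISGF3, measured 10.8, 10.4 and 9.04 CPM in DMSO and 14.1, 16.5 and 11.6 CPM with the combination, without overlap (0.47 ± 0.11, adjusted p = 0.00342).

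SAMHD1 measured 195, 224 and 191 CPM with the combination, above all DMSO libraries, with a log2 fold change of 0.83 ± 0.18 (adjusted p = 0.00274). TLDC2 on the opposite strand shares 9.86% of the exon bases of SAMHD1. OAS1 was higher by 0.40 ± 0.11 (adjusted p = 0.00876), and the adjusted p was 0.0624 without Ento+AZD replicate 2. PARP12 was higher by 0.93 ± 0.31 (adjusted p = 0.0255), with an adjusted p of 0.337 without DMSO replicate 2, 0.146 without Ento+AZD replicate 2 and 0.0603 without Ento+AZD replicate 3. ISG20 and TRIM22, which rose with Ento and fell with AZD, measured 62.6, 85.1 and 37.6 CPM and 139, 162 and 101 CPM with the combination. Both overlapped with DMSO, with log2 fold changes of 0.07 ± 0.11 (95% interval -0.16 to 0.30) for ISG20 and 0.12 ± 0.09 (-0.07 to 0.32) for TRIM22.

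**Figure D3:**
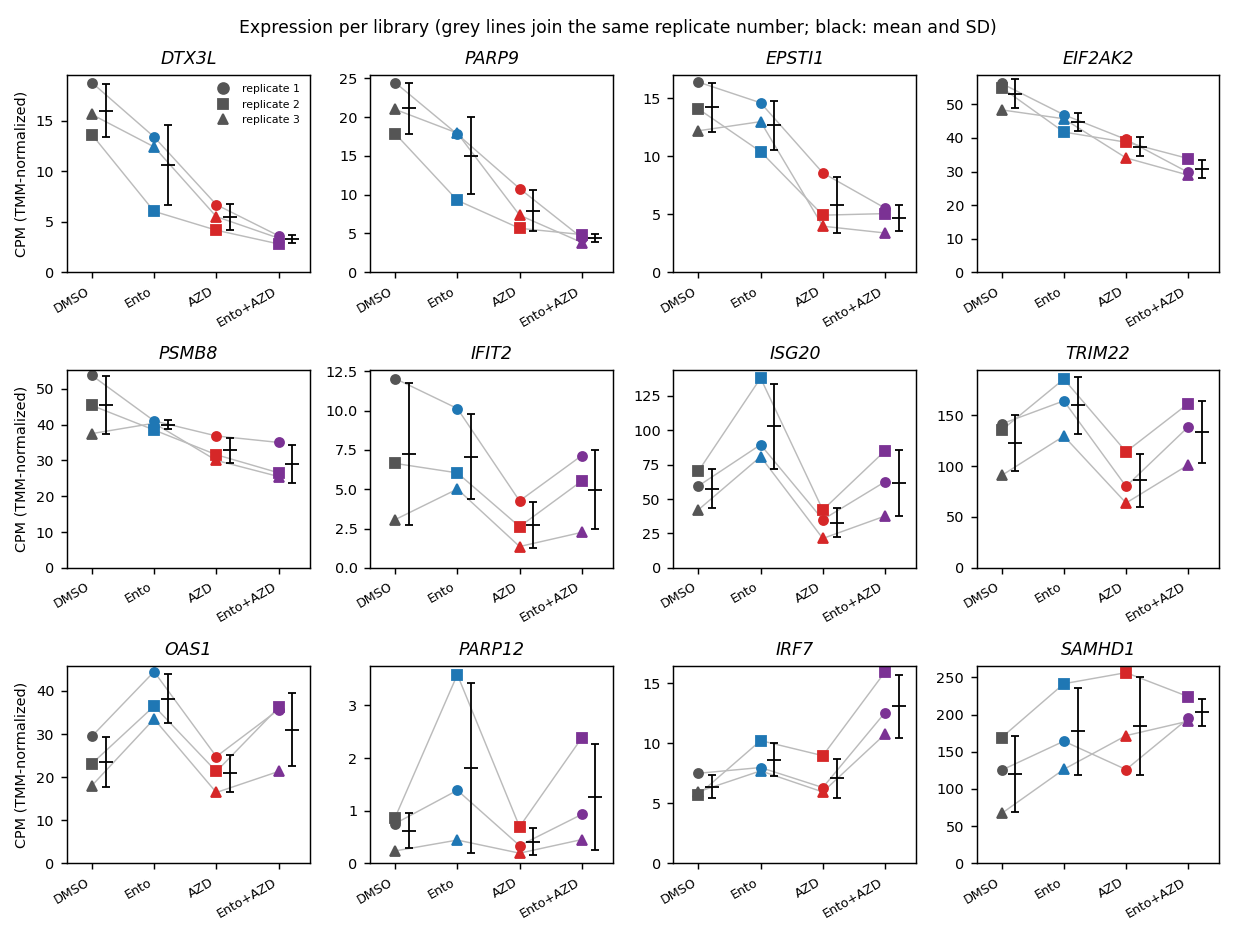
CPM of 12 genes in each library of the 4 groups, with 1 symbol for each replicate number, grey lines joining equal numbers, and the mean and SD of the 3 libraries in black; the axes start at 0. DTX3L and PARP9 step down from DMSO to Ento+AZD, ISG20 and TRIM22 rise with Ento and fall with AZD along each grey line, and IRF7 is highest in all 3 libraries of the combination.

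Adding AZD to Ento changed the genes mostly downward. Compared with Ento alone, 13 of the 31 genes were lower and 1 was higher in the combination, where 12.2% of all tested genes were lower and 8.27% higher. Of these, 4 were lower by a fold change over 2 and none higher (2.47% and 0.879% of all tested genes), and the groups did not overlap in 10 lower genes and 1 higher gene (11.7% and 11.5% of all tested genes). PARP9 (-1.73 ± 0.20, adjusted p = 0.000185), DTX3L (-1.66 ± 0.17, adjusted p = 0.000115) and EPSTI1 (-1.45 ± 0.18, adjusted p = 0.000295) decreased most and were below every Ento library. ISG20 (-0.77 ± 0.11, adjusted p = 0.000483), EIF2AK2 (-0.54 ± 0.09, adjusted p = 0.00113), PSMB8 (-0.48 ± 0.10, adjusted p = 0.00397) and SAMD9 (-0.45 ± 0.08, adjusted p = 0.00178) decreased as well. IFI16 (-0.26 ± 0.07, adjusted p = 0.0211) and IRF1 (-0.55 ± 0.13, adjusted p = 0.00827) lost their calls without replicate 1 or 3 of either Ento or Ento+AZD, with adjusted p up to 0.155 for IFI16 without Ento replicate 3 and 0.069 for IRF1 without Ento+AZD replicate 1. OAS1, IFIT2, SAMD9L and CMPK2 had log2 fold changes from -0.32 to -1.0 and lost their calls in 7, 7, 10 and 10 of the 12 fits that each left out 1 library, with adjusted p up to 0.258 for OAS1, 0.244 for IFIT2 and 0.231 for CMPK2 without Ento replicate 3, and 0.176 for SAMD9L without Ento replicate 2. The number of genes called fell from 14 to 8 without Ento replicate 1, to 7 without Ento replicate 3, and to 8 without Ento+AZD replicate 1 or without Ento+AZD replicate 3.

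Adding Ento to AZD changed the genes mostly upward. Compared with AZD alone, 8 of the 31 genes were higher and 2 lower, where 5.85% of all tested genes were higher and 6.04% lower. PARP12 was higher by a fold change over 2 and no gene was lower by it (1.25% and 0.422% of all tested genes), and the groups did not overlap in 4 higher and 3 lower genes (9.12% and 7.99%). ISG20 (0.89 ± 0.11, adjusted p = 0.000438), TRIM22 (0.65 ± 0.09, adjusted p = 0.00114) and OAS1 (0.57 ± 0.11, adjusted p = 0.00594) were higher within each of the 3 replicate numbers, although the groups overlapped. STAT2, a subunit of ISGF3, measured 71.8, 73.9 and 66.1 CPM in AZD and 90.8, 119 and 81.7 CPM in the combination, without overlap. It differed by 0.45 ± 0.10 (adjusted p = 0.0106), which was 0.0665 without AZD replicate 2 and 0.0542 without Ento+AZD replicate 2, and it was at 81.2, 78.7 and 82.6 CPM in DMSO. IRF9 (0.46 ± 0.11, adjusted p = 0.0165) had an adjusted p between 0.0525 and 0.0888 without AZD replicate 1 or 2 or Ento+AZD replicate 1 or 2. IFIT2 (0.87 ± 0.21, adjusted p = 0.0165) and PARP12 (1.58 ± 0.34, adjusted p = 0.0102) lost their calls without AZD replicate 1 or 2 or Ento+AZD replicate 2, with adjusted p from 0.0583 to 0.084.

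Against this direction, DTX3L and PARP9 were lower in the combination than with AZD alone. DTX3L differed by -0.73 ± 0.18 (adjusted p = 0.0187), with an adjusted p between 0.0591 and 0.0966 without AZD replicate 1 or 2 or Ento+AZD replicate 1 or 3. PARP9 differed by -0.81 ± 0.20 (adjusted p = 0.0211), with an adjusted p of 0.121 without AZD replicate 1, 0.125 without Ento+AZD replicate 1 and 0.0868 without Ento+AZD replicate 3. The number of genes called against AZD fell from 10 to 5 without AZD replicate 1 or without AZD replicate 2, and to 6 without Ento+AZD replicate 2. The 6 comparisons share libraries, so they are not independent of each other.

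Whether the effect of AZD differed with and without Ento was tested by the interaction of the agents on the log2 scale. No gene was called by the edgeR fit, neither among the 31 (0%) nor among all tested genes, and 4 of the 31 genes (IFIT2, STAT2, IRF7 and IFI35) were at an unadjusted p under 0.05, as were 9.81% of all tested genes. The DESeq2 fit called 7 of all tested genes and none of the 31, with 3 of the 31 at an unadjusted p under 0.05 (IFIT2, STAT2 and IRF7). IFIT2 had an interaction of 0.80 ± 0.27 (95% interval 0.22 to 1.38, adjusted p = 0.444), IRF7 of 0.48 ± 0.22 (0.02 to 0.94, adjusted p = 0.497) and STAT2 of 0.40 ± 0.14 (0.11 to 0.70, adjusted p = 0.444). For DTX3L it was -0.10 ± 0.23 (-0.58 to 0.39) and for PARP9 -0.30 ± 0.27 (-0.87 to 0.27).

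Several well expressed genes passed the test in none of the 6 comparisons. ISG15 measured 22.2, 18 and 13.8 CPM in DMSO, 20.7, 17.4 and 17.3 CPM in Ento, 18.8, 17.1 and 15.4 CPM in AZD and 21.6, 18.1 and 18.7 CPM in Ento+AZD. All 4 groups overlapped, and the 95% interval of its log2 fold change with AZD was -0.29 to 0.16. SP100, a protein of PML nuclear bodies, measured 89.5, 85.6 and 75.1 CPM in DMSO, 90.3, 93.0 and 83.8 CPM in Ento, 83.1, 93.2 and 86.5 CPM in AZD and 90.9, 94.2 and 84.8 CPM in Ento+AZD. Its interval with AZD was -0.08 to 0.23, and that of BST2 was -0.11 to 0.25. SP110, of whose exon bases 19.4% are shared with SP140 and a further gene on the opposite strand, PSMB10, PARP14, OAS3 and RSAD2 were not called either. The last 3 were at levels of at most 0.958 CPM in any group mean, where the intervals were wide (-0.74 to 1.29 for OAS3 with AZD).

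Genes that fell with AZD were found both with and without the ISRE core. OAS2, IFIT2, MX2, IRF7 and TRIM22 were tested but had no window and are not counted here. Of these, OAS2, IFIT2 and TRIM22 were lower with AZD. Of the 11 tested genes with the core in the window, 5 were lower with AZD (DTX3L, EPSTI1, SAMD9, ISG20 and EIF2AK2). Of the 15 without it, 7 were lower, where 12.7% of all tested genes were lower. PARP9 is among these 7. Its window (chr3:122564735-122565034) does not reach the core shown for DTX3L, which lies within the PARP9 gene body. With Ento, 2 of the 11 with the core were higher (ISG20 and PARP12) and 1 was lower, and 1 of the 15 without it was higher. Over all tested genes, 4.66% were higher and 3.66% lower with Ento. Between Ento and AZD, 5 of the 11 and 5 of the 15 were higher with Ento, as were 8.99% of all tested genes. ISG15, BST2, PSMB10, PARP14 and OAS3 hold the core and were called in none of these comparisons.

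The pathway that drives these genes was measured in 49 further genes, of which 34 were tested. Of the 34, 4 were higher and 5 lower with Ento, 3 higher and 6 lower with AZD, and 5 higher and 12 lower with Ento+AZD, each against DMSO. Over all tested genes, 4.66% were higher and 3.66% lower with Ento, 9.57% and 12.7% with AZD, and 19.2% and 20.8% with Ento+AZD, so that the counts of higher genes with AZD and Ento+AZD were near or below the share of all genes. Among the receptor chains, IFNGR2 fell with AZD from 49.4 ± 4.0 to 32.2 ± 2.79 CPM (-0.62 ± 0.10, adjusted p = 0.000944) and with the combination (-0.49 ± 0.10, adjusted p = 0.00111), and IFNAR2 fell with the combination from 72.4 ± 5.63 to 54.1 ± 2.25 CPM (-0.42 ± 0.09, adjusted p = 0.00226). The kinases JAK1 (0.66 ± 0.07, adjusted p = 2.01e-05) and TYK2 (0.55 ± 0.07, adjusted p = 6.52e-05) rose with the combination, from 63.6 ± 4.03 to 100 ± 3.97 CPM and from 165 ± 15.7 to 241 ± 12.3 CPM.

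Of the other interferon regulatory factors, IRF5 fell with Ento (-0.70 ± 0.09, adjusted p = 0.000551), AZD (-0.89 ± 0.10, adjusted p = 0.000113) and the combination (-1.32 ± 0.10, adjusted p = 1.82e-06), from 25 ± 2.79 CPM in DMSO to 9.97 ± 1.17 CPM in Ento+AZD. IRF8, a factor of germinal centre B cells, rose with AZD (0.48 ± 0.08, adjusted p = 0.0013) and the combination (0.65 ± 0.08, adjusted p = 3.06e-05), from 311 ± 35.1 to 486 ± 5.11 CPM. NLRC5, the transactivator of class I antigen presentation, fell with AZD (-0.90 ± 0.12, adjusted p = 0.00043) from 12.5 ± 5.62 to 6.85 ± 3.78 CPM and was higher in Ento than in AZD (1.30 ± 0.12, adjusted p = 9.32e-06). These calls held in every fit that left out 1 library. Without the replicate number as a term, the adjusted p was 0.103 for IRF5 with Ento, 0.0614 for IRF8 with AZD, and 0.349 and 0.221 for NLRC5 with AZD and between Ento and AZD.

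The libraries carried the signature of germinal centre B cells. The 8 B-cell markers summed to between 4675 and 8603 CPM per library, led by MS4A1. Of the T-cell markers, CD3D and CD2 had 0 counts in every library, CD3G had 6 and CD5 25 counts over all libraries, and their summed level with CD3E was 0.864 to 1.83 CPM in DMSO, 1.28 to 2.35 in Ento, 0.588 to 0.759 in AZD and 0.905 to 1.13 in Ento+AZD. CD3E alone of the 5 was tested and was lower with AZD (-1.02, adjusted p = 0.0241). The 6 myeloid and plasmacytoid dendritic cell markers summed to at most 3.62 CPM, with CLEC4C at 0, and the 3 NK cell markers to at most 2.71 CPM. The share of counts on mitochondrial ribosomal RNA was 1.72% to 1.96% in DMSO, 2.27% to 2.74% in Ento+AZD and at most 2.23% in the single-agent groups, and its part in the differences of the combination was not tested.

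The levels of these genes also differed between replicate numbers. The same replicate number was highest in all 4 groups for 13 of the 31 genes, replicate 1 for 8 and replicate 2 for 5, and the same number was lowest in all 4 groups for 12, replicate 3 for 11 of these. The summed level of the 49 genes overlapped between groups, with 1012 to 1347 CPM in DMSO, 1239 to 1519 in Ento, 958 to 1221 in AZD and 1081 to 1372 in Ento+AZD. Without the replicate number as a term, the numbers of genes called against DMSO were 4 for AZD, 0 for Ento and 8 for Ento+AZD. They were 4 for Ento+AZD against Ento, 0 for Ento+AZD against AZD and 4 for Ento against AZD. The share of all tested genes called in that fit is not given here. Whether these genes lost more of their calls than other genes was not tested. DTX3L, PARP9, EPSTI1 and EIF2AK2 were called in that fit with AZD, with the combination and in the combination against Ento, IRF7, IRF1, PSMB8 and SAMD9 with the combination against DMSO, and ISG20, IFI16, MX2 and EPSTI1 in Ento against AZD.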

How the data were processed

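RNA from SU-DHL-4 cells for 12 libraries was enriched for poly-A RNA, prepared with the NEBNext Ultra II RNA kit and sequenced as single reads on an Illumina NextSeq500. The authors trimmed the reads with cutadapt through Trim Galore, aligned them to GRCh38.p13 and counted them per gene with Rsubread. The submitters' processing notes name bcl2fastq 2.19 and, beside GRCh38.p13, hg19 with no stated role. The strand setting and annotation release are not given in the sources used here. The deposited values used are raw counts per gene, 18121993 to 24675830 per library, where 1 count was worth 0.0393 to 0.0564 CPM. A deposited table of TMM-normalized values was not used.

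With edgeR 4.0.16 (R 4.3.3), the counts were filtered by filterByExpr (minimum count 10, minimum total 15), scaled by TMM and fitted over all 12 libraries with a quasi-likelihood model without intercept, with treatment group and replicate number as terms. The model is that of the study, whose batch was taken to be the replicate number. A gene was called at a Benjamini-Hochberg adjusted p under 0.05 over all 16835 genes tested, and the study's fold change over 2 is given beside it. Deviations from the group means correlated at 0.241 to 0.770 between libraries of equal number (18 pairs) and at -0.696 to 0.378 otherwise (36 pairs), so the numbers paired the libraries in these data. Alternatives were a fit without the replicate number, DESeq2 1.42.0, upper quartile scaling, no filter on low counts and leaving out each library.

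CPM are TMM-scaled, and errors are SD (n = 3) or SE of the log2 fold change. Exon lengths and overlaps are from GENCODE v44 on GRCh38, as the union of exons. The genes named with all values were, in each role, the tested gene with the highest mean CPM and, in each comparison, the 4 called genes with the smallest adjusted p; other called genes were named by choice. SAMD9L, IRF9 and BST2 were given further values after these were seen. The members, the pathway list and the markers were chosen with earlier results of these data known. The values of 1 gene of the pathway list are not reported here.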

Additional observations from a re-analysis of the deposited data

How the results depend on the processing

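Among the 31 genes, 74 calls were made over the 6 comparisons between groups. All 74 kept their direction under every alternative that gave them an adjusted p, 20 passed the threshold under every alternative, and 26 more were lost only without the replicate number. DESeq2 gave no adjusted p for SAMD9L in AZD against DMSO and in Ento+AZD against Ento, so these 2 calls have no DESeq2 result. The numbers of genes called for Ento, AZD and Ento+AZD against DMSO, Ento+AZD against Ento, Ento+AZD against AZD and Ento against AZD were 5, 16, 15, 14, 10 and 14. In the fit with no replicate block, that is without the pairing by replicate number, they were 0, 4, 8, 4, 0 and 4, and the cause of the loss was not tested. With a fold change over 2 also needed they were 1, 6, 5, 4, 1 and 6. DESeq2, upper quartile scaling and no filter on low counts left each of these within 1.5 times, at 5 to 7, 14 to 17, 13 to 19, 11 to 16, 10 to 11 and 12 to 16. Leaving out each library in turn gave 2 to 7, 10 to 16, 13 to 17, 7 to 16, 5 to 11 and 11 to 16, where fewer libraries were fitted. Apart from the fold change over 2, the shares of all tested genes called under these alternatives are not given here for the 6 comparisons. The interaction called 0 of the 31 genes under all of these alternatives. Scaling moved the median of all genes by at most 0.035 on the log2 scale. Depth limits the 18 genes below the filter and the tested genes under 1 CPM, whose intervals were wide, and 3 libraries per group leave many calls to single libraries. Counts on bases shared with a gene of the opposite strand could not be assigned.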

Other observations

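Upstream of the genes described, 10 of 13 sensors and adaptors were tested. Against DMSO, 1 of the 10 was called lower with Ento, 2 with AZD and 2 with Ento+AZD, and none was called higher. Of all tested genes, 3.66%, 12.7% and 20.8% were lower in these comparisons, so the count with Ento+AZD was near that share. The median log2 fold change of the 10 genes with Ento+AZD was 0.049. DHX58, a regulator of RNA sensing by RIG-I-like receptors, fell from 2.18 ± 0.449 CPM (SD, n = 3) in DMSO to 1.00 ± 0.328 CPM with AZD (log2 fold change -1.11 ± 0.24, adjusted p = 0.0059) and to 1.08 ± 0.395 CPM with Ento+AZD (-1.01 ± 0.24, adjusted p = 0.00412). With Ento it was at 1.10 ± 0.233 CPM (-0.998 ± 0.24, adjusted p = 0.0193), and this adjusted p was 0.0584 without DMSO replicate 3, 0.15 without Ento replicate 1 and 0.0727 without Ento replicate 3. CGAS, the cytosolic DNA sensor that makes cGAMP, had 24, 16 and 37 counts in DMSO and 5, 5 and 4 counts in Ento+AZD, without overlap (-2.09 ± 0.34, adjusted p = 0.00032). Its change with AZD (-1.14 ± 0.29, adjusted p = 0.0142) had an adjusted p of 0.0822 without DMSO replicate 3, 0.0533 without AZD replicate 2 and 0.132 without AZD replicate 3. In the fit without the replicate number, the adjusted p of DHX58 was 0.242 with Ento, 0.0865 with AZD and 0.0517 with Ento+AZD. That of CGAS was 0.107 with AZD in the same fit, and the call of CGAS with Ento+AZD held.

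Of 6 genes of class I and II transactivation and peptide loading, 2 were higher and 2 lower with the combination than in DMSO. Over all tested genes, 19.2% were higher and 20.8% lower in this comparison. TAP2 (0.41 ± 0.10, adjusted p = 0.00369) and CIITA (0.41 ± 0.09, adjusted p = 0.00326) were higher. The proteasome activator PSME2 was lower (-0.47 ± 0.11, adjusted p = 0.00386). TAP1, the partner of TAP2 in the peptide transporter, was lower (-0.34 ± 0.12, adjusted p = 0.0328), with an adjusted p of 0.131 without DMSO replicate 1, 0.111 without DMSO replicate 2, 0.237 without Ento+AZD replicate 1 and 0.0544 without Ento+AZD replicate 3. Among 4 tested inhibitors, PTPN6, a phosphatase that dampens receptor signalling in B cells, was lower with the combination (-1.08 ± 0.26, adjusted p = 0.00469). It had 150, 147 and 66 counts against 395, 509 and 95 counts in DMSO, not scaled to depth, and the groups overlapped. In replicate 3, 1 count was worth 0.0393 CPM in DMSO and 0.0564 CPM in Ento+AZD. The 95 and 66 counts of replicate 3 therefore stand for nearly equal levels, and the decrease lay in replicates 1 and 2. Without the replicate number the calls of TAP2, CIITA, TAP1 and PTPN6 were lost (adjusted p = 0.141, 0.463, 0.162 and 0.177), and that of PSME2 held. With upper quartile scaling the adjusted p of TAP1 was 0.0507.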
